A study of Mus musculus with 24 samples.

Results

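The epidermal growth factor (EGF) ligands, the neuregulin *Nrg1* and the ErbB receptors were followed in L4 and L5 dorsal root ganglia (DRGs) of mice after a sciatic nerve lesion. The 10 genes *Nrg1*, *Hbegf*, *Areg*, *Ereg*, *Btc*, *Tgfa*, *Egfr*, *Erbb2*, *Erbb3* and *Erbb4* were taken by their gene name in the array annotation, with every probe that carries the name. They were measured by 30 of 41174 probes and are 10 of 27398 gene names. Adult male C57BL/6J mice were either wildtype (WT) littermates or *Nfil3* KO mice, in which Cre in the germ line had removed the transcriptional repressor NFIL3 from all cells. The left sciatic nerve was cut and its ends were sutured together, and DRGs were taken at day 2 or day 5 post-lesion. Control DRGs came from the side that was not injured. The labels do not say whether controls and lesioned DRGs came from the same mice. Each of the 6 groups (WT control, WT day 2, WT day 5, KO control, KO day 2 and KO day 5) had 4 samples, 2 per dye, and the 24 samples lay on 12 Agilent arrays of 3 slides. The labels name the tissue DRG neurons, but whole ganglia were dissected, and all 7 sensory neuron markers were well above background in all 24 samples beside markers of glia, macrophages and fibroblasts.

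EGF ligands are made as membrane-bound precursors, and proteases of the ADAM family release them. Amphiregulin, TGF-alpha and EGF bind the EGF receptor (EGFR), HB-EGF, epiregulin and betacellulin bind EGFR and ErbB4, and neuregulins bind ErbB3 and ErbB4. ErbB2 binds no known ligand and acts as the partner of the other receptors. In peripheral nerve, neuregulin 1 on axons is known for signalling through ErbB2 and ErbB3 to Schwann cells, where it controls survival and myelination.

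All values are log2 intensities after background correction and quantile normalization, and a change of 1 is a doubling. Levels of different probes are not comparable, so only changes are set side by side. Lesion changes are means of the WT and the KO change, with the standard error (SE) and the Benjamini-Hochberg adjusted p of a limma fit to all 24 samples and all 41174 probes, and a probe was called at an adjusted p under 0.05. Both time points share the same controls. Per sample, 54.5% to 72.3% of probes exceeded background clearly, saturation was not seen (0 spots), and the precision is limited by 4 samples per group. The *Nfil3* probe A_52_P500027 had 8.73 ± 0.27 in WT control, 10.59 ± 0.18 in WT day 2 and 10.99 ± 0.20 in WT day 5 samples (SD, n = 4), against 4.71 ± 2.05, 4.71 ± 1.40 and 4.47 ± 1.54 in KO samples. Among KO samples it exceeded background clearly in 1 control and in 2 at each time post-lesion. The sample labelled KO control replicate 4 carries 2 labels, since another field gives day 5 for it, and its *Nfil3* value was 7.66, against 2.99 to 4.39 in the other KO controls. Calls are therefore given with and without it.

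Of the 30 probes, 12 were well above background in all 24 samples, 12 in some and 6 in none. The genes with a probe in the first class were *Nrg1*, *Hbegf*, *Egfr*, *Erbb2*, *Erbb3* and *Erbb4*. At day 2, 4 probes were higher and 4 lower, from the genes *Nrg1*, *Egfr*, *Areg* and *Tgfa*. Over all probes tested, 9.26% were higher and 12.1% lower at day 2. At day 5, 4 probes were higher and 4 lower, from *Nrg1* and *Egfr*, and the shares over all probes were 9.59% and 12.6%. Between day 2 and day 5, 4 probes of *Egfr* were higher and 1 of *Areg* was lower, against 2.09% and 1.04% of all probes. The median change of the 30 probes was 0.11 at both times, against -0.02 and -0.03 over all probes.

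**Figure D1:**
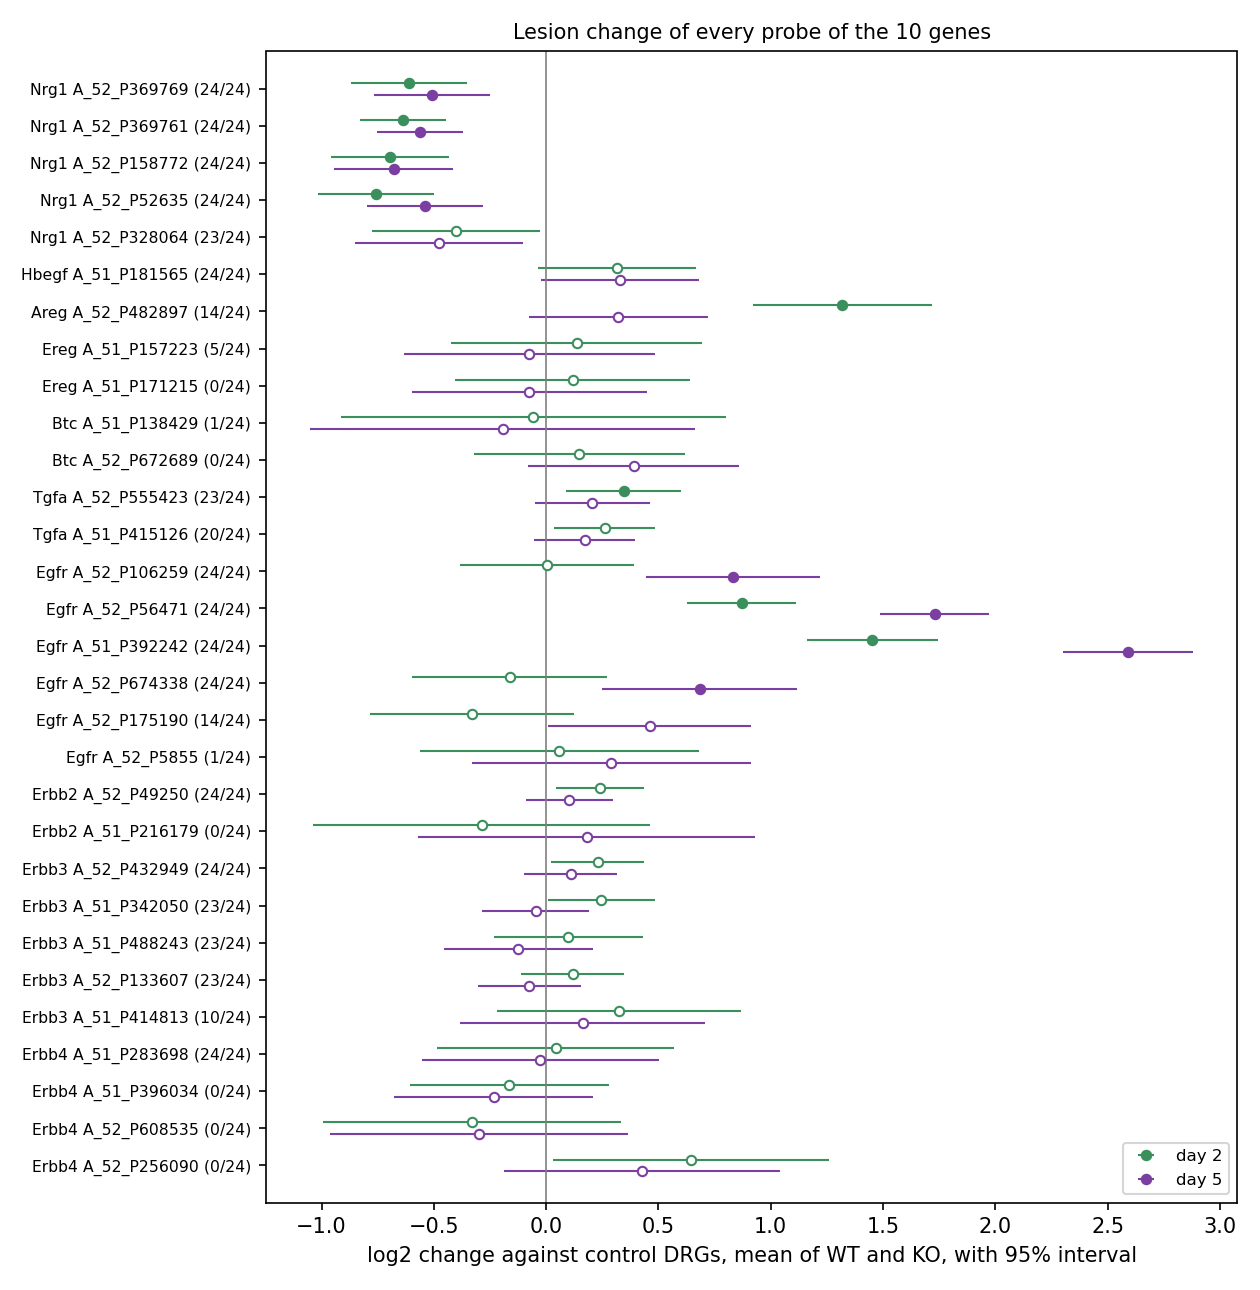
Log2 change at day 2 (green) and day 5 (purple) against control DRGs for each of the 30 probes, as the mean of WT and KO with its 95% confidence interval. Filled points passed an adjusted p of 0.05, and the number after each probe is the count of samples, of 24, in which it was well above background. The called probes lie left of 0 for *Nrg1* and right of 0 for *Egfr*, *Areg* and *Tgfa*.

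*Egfr*, the receptor of amphiregulin and TGF-alpha, was higher after the lesion on some of its probes, at different times and by different amounts. Of its 6 probes, only A_51_P392242 and A_52_P56471 were called higher at day 2, and 4 were called higher at day 5. The array annotation assigns A_51_P392242 to transcript variant 2, the short form that codes for a receptor without the membrane-spanning and kinase parts, and A_52_P106259 and A_52_P674338 to variant 1, which codes for the full receptor. A_52_P56471 is assigned to variant 2 and further transcripts and lies at chr11:16783545-16783604 (+), with mm9 as the genome build of the arrays, in a stretch that codes for the extracellular part. Its sequence is shown because it is the coding stretch among the called *Egfr* probes whose change lay between those of the short-form and the full-length probes.

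A_52_P56471: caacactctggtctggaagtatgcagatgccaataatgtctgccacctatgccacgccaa

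The short-form *Egfr* probe A_51_P392242, at chr11:16787385-16787444 (+), was at 5.66, 5.25, 5.61 and 5.74 in the WT controls and at 5.12, 5.44, 5.27 and 5.86 in the KO controls. At day 2 the WT samples were at 6.82, 7.28, 7.0 and 6.86 and the KO samples at 7.36, 6.78, 6.29 and 7.15. At day 5 the WT samples were at 7.99, 7.87, 8.33 and 7.89 and the KO samples at 8.19, 7.94, 8.25 and 8.20. The 3 times did not overlap on this probe, and each day 5 sample was above each day 2 sample. The highest control was the sample labelled KO control replicate 4, whose 5.86 lies below all day 2 and day 5 samples. The change was 1.45 at day 2 (SE 0.14, limma adjusted p = 1.79e-07), a 2.74-fold increase, and 2.59 at day 5 (adjusted p = 2.09e-11), a 6.02-fold increase. From day 2 to day 5 it rose by 1.14 (adjusted p = 4.93e-05). Without KO control replicate 4 the changes were 1.53 and 2.66. Within the 3 slides they were 0.94, 1.45 and 1.49 at day 2 and 2.84, 2.52 and 2.29 at day 5. The size depends on the background correction, since with normexp it was 0.68 at day 2 and 1.44 at day 5, and with none 0.80 and 1.65, with the calls kept.

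The full-length *Egfr* probe A_52_P106259, at chr11:16813815-16813874 (+), was at 7.54, 6.95, 7.60 and 7.71 in the WT controls and at 6.98, 7.21, 7.33 and 7.85 in the KO controls. At day 2 the WT samples were at 7.17, 7.69, 8.04 and 7.22 and the KO samples at 7.56, 6.65, 6.88 and 8.0. At day 5 the WT samples were at 8.11, 8.19, 8.33 and 8.54 and the KO samples at 7.92, 8.12, 8.37 and 8.25. Day 2 overlapped with control over most of its range, and day 5 lay above all controls. The change was 0.01 at day 2 (SE 0.19, 95% interval -0.38 to 0.39, adjusted p = 0.991) and 0.83 at day 5 (limma adjusted p = 0.0021), a 1.78-fold increase, and within slides it was 0.90, 0.78 and 0.85 at day 5. Without KO control replicate 4 the day 5 change was 0.92. The second full-length probe A_52_P674338 changed by -0.16 and 0.68 at the 2 times (limma adjusted p = 0.659 and 0.0204), and by 0.70 at day 5 without KO control replicate 4. The day 5 call was lost without KO control replicate 1 (adjusted p = 0.0502) and with the controls limited to those that shared an array with another control (0.50, adjusted p = 0.249).

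The extracellular *Egfr* probe A_52_P56471 lay between the others, with an increase of 0.87 by day 2 (limma adjusted p = 1.38e-05) and of 1.73 by day 5 (5.88e-10). Within slide 1, which holds 1 day 2 sample, the day 2 change was 0.29, and within the other slides 0.91 and 0.90. Its control samples lay between 5.81 and 6.37, day 2 samples between 6.25 and 7.31 and day 5 samples between 7.66 and 7.94. The remaining *Egfr* probes were dim. A_52_P175190 was well above background in 14 of 24 samples (day 2 change -0.33, day 5 change 0.46, limma adjusted p = 0.329 and 0.154), and A_52_P5855 in 1 of 24.

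**Figure D2:**
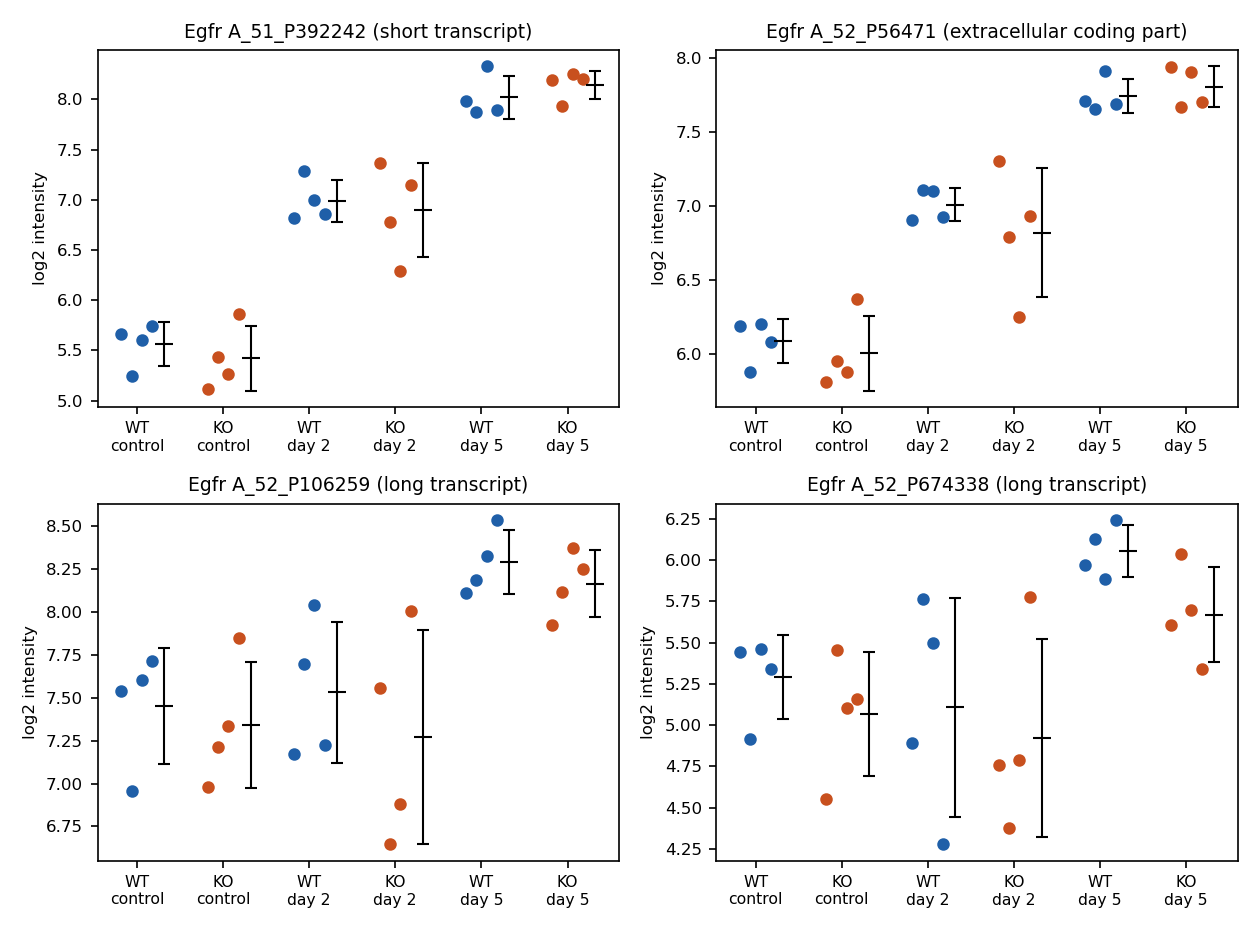
Log2 intensity of 4 *Egfr* probes in each of the 24 samples, WT in blue and KO in orange, with the mean and SD (n = 4) in black beside each group. The vertical axes differ between panels. The short-form probe is higher at day 2 than in control in all samples, while the day 2 samples of A_52_P106259 lie from 6.65 to 8.04, across the control range of 6.95 to 7.85.

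The difference between the short-form and the full-length *Egfr* probe within each sample was compared after the values were seen. Controls had -1.91 ± 0.12, day 2 samples -0.46 ± 0.37 and day 5 samples -0.15 ± 0.26 (mean ± SD, n = 8). Since the probes differ, only its shift between groups was read. The shift from control was 1.45 at day 2 and 1.76 at day 5, given as a description with no test. The shifts shrank to 0.67 and 0.85 under normexp and to 0.79 and 1.0 on uncorrected signals, and processed signals gave 1.65 and 1.98. All 16 lesioned samples lay above all 8 controls, from -1.04 to 0.27 against -2.06 to -1.71, and the same order was found under each of these settings.

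Markers of macrophages, some of glia and the fibroblast marker *Lum* moved in the same direction as *Egfr*. Of 6 macrophage markers, 3 rose at day 2 (*Aif1*, *Cd68* and *Itgam*) and all 6 at day 5, with a median change of 0.53 and 1.68. Their summed linear intensity ranged from 1144 to 2119 in WT controls, from 1844 to 3106 in WT day 2 and from 4676 to 5651 in WT day 5 samples. In KO mice these ranges were 1039 to 2019, 1581 to 2723 and 3756 to 5148. Of 5 satellite glia markers, *Gfap* (1.43 and 1.22) and *Glul* (0.78 and 0.65) rose at both times, while *Fabp7* (-0.93 and -0.36) and *Gja1* (-0.43 and -0.33) were lower at both and *Kcnj10* at day 2 (-0.28). Of 4 fibroblast markers, *Lum* rose at day 5 (0.81, limma adjusted p = 0.0128). The others, *Col1a1*, *Col3a1* and *Dcn*, had -0.39, -0.28 and -0.24 at day 2 and 0.12, 0.22 and 0.35 at day 5, and were not called. The part of these cells in the *Egfr* change was not tested. In whole ganglia, a change in the number of cells of a type and a change in RNA per cell cannot be told apart.

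*Areg*, which codes for the EGFR ligand amphiregulin, rose at day 2 and was lower at day 5 than at day 2. Its only probe A_52_P482897 lies in the coding sequence at chr5:91570090-91570149 (+) in mm9, and its sequence is shown because the early ligand signal rests on it alone.

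A_52_P482897: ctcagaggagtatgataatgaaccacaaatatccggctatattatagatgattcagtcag

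*Areg* was at 4.20, 4.51, 3.27 and 3.16 in the WT controls and at 3.74, 4.21, 3.84 and 4.15 in the KO controls. At day 2 the WT samples were at 5.37, 5.12, 5.19 and 5.61 and the KO samples at 5.45, 5.24, 5.03 and 4.62. At day 5 the WT samples were at 3.93, 4.76, 3.85 and 3.89 and the KO samples at 4.22, 4.64, 4.32 and 4.05. All 8 day 2 samples were above all controls, and day 5 overlapped with both. The probe was dim, being well above background in 2 of 8 control, 7 of 8 day 2 and 5 of 8 day 5 samples. The change was 1.32 at day 2 (SE 0.19, limma adjusted p = 3.34e-05). The day 5 change was 0.32 (adjusted p = 0.281), and day 5 was lower than day 2 (-1.0, adjusted p = 0.00402). With 6 of 8 controls not well above background, the size is uncertain and no fold is given. The day 2 change was 0.28 with normexp, 0.38 without background correction and 2.14 with processed signals, with the call kept in all. At day 5 the probe was called higher than control without background correction (0.14, adjusted p = 0.0267) and with processed signals (1.22, adjusted p = 0.000765). Without KO control replicate 4 the day 2 change was 1.35, and within the 3 slides the day 2 change was 1.11, 1.04 and 1.49. Amphiregulin is also known as a product of epithelia. Of 5 epithelial markers, only 2 were well above background in all 24 samples, which limits what a missing call can show. None was called higher at either time, and 1 was called lower at each. The lower marker at day 2 was *Cdh1* (-0.39, limma adjusted p = 0.00484). Whether epithelial cells had a part in the *Areg* change was not tested.

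The set of RefSeq promoters used held 6 of the 10 genes (*Egfr*, *Erbb2*, *Erbb4*, *Areg*, *Btc* and *Tgfa*), and the others were not searched. Among these 6, *Areg* was the only gene that held the full palindromic site TGACGTCA of the activator CREB. On either strand this site was in 1.79% of all 32851 promoters, taken from 250 bases before to 50 after the start. The NFIL3 sites TTACGTAA and TTATGTAA, on either strand, were in none of the 6, against 0.119% and 0.938% of all. Such a match is a description of the letters only. The 250 bases before the *Areg* start in GRCm38.p6, at chr5:91139349-91139598 (+), are shown with the CREB site in capitals, which begins 61 bases before the start.

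Areg promoter: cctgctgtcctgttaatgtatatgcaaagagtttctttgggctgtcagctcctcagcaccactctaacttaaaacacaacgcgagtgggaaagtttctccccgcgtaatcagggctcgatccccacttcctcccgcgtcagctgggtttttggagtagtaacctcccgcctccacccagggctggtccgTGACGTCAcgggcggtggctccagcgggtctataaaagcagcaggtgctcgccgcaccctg

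*Tgfa*, another EGFR ligand, had a small change at the edge of the threshold. Probe A_52_P555423 had a median of 5.05 in control, 5.39 at day 2 and 5.20 at day 5, and the ranges overlapped (4.54 to 5.22, 4.93 to 5.66 and 4.87 to 5.57). Group means in control and at day 2 were 4.92 and 5.51 in WT mice, and 5.11 and 5.21 in KO mice. As the mean of both genotypes, the change at day 2 was 0.35 (SE 0.12, limma adjusted p = 0.0498), and this call was kept in 11 of 38 alternatives. It was lost with 18 of the 24 samples left out in turn, among them KO control replicate 4 (0.36, adjusted p = 0.0564), and within the 3 slides the change was -0.17, 0.34 and 0.46. The second *Tgfa* probe A_51_P415126 had 0.26 (adjusted p = 0.0961) and was called in 4 of 38 alternatives.

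*Hbegf*, whose product is a heparin-binding ligand of EGFR and ErbB4, was well above background in all samples. Its change was 0.32 at day 2 (95% interval -0.04 to 0.67, adjusted p = 0.209) and 0.33 at day 5 (-0.02 to 0.68, adjusted p = 0.195). Day 2 samples spread from 8.27 to 9.79 and controls from 8.34 to 8.85. The highest day 2 values, 9.79 in WT replicate 3 and 9.53 in KO replicate 1, came from the same array, and these samples also had the highest day 2 values of *Erbb2* probe A_52_P49250 and *Erbb3* probe A_52_P432949. On *Erbb3* probe A_52_P133607 KO replicate 1 was instead the lowest day 2 sample, at 4.70, while WT replicate 3 was the highest, at 5.50. *Ereg* (epiregulin) and *Btc* (betacellulin) were at or near background, with a probe well above it in at most 5 and 1 of 24 samples, and none of their 4 probes was called. The 5 samples were those of *Ereg* probe A_51_P157223, annotated on the (-) strand. The other *Ereg* probe A_51_P171215, annotated on the (+) strand, was well above background in 0 of 24 samples.

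*Nrg1*, which codes for a ligand of the glial ErbB receptors, fell at both times. Whole ganglia were measured, so the cells that carried this RNA cannot be told. Of its 5 probes, 4 were called lower at day 2 and at day 5. A_52_P369769 lies at chr8:32959791-32959850 (-) in mm9 in the part that codes for the EGF-like domain, which binds the receptor. A_52_P369761 joins parts of the gene between chr8:32941681-32948181 (-) and holds the end of that domain in its beta form. Both sequences are shown because they are the receptor-binding part of the message.

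A_52_P369769: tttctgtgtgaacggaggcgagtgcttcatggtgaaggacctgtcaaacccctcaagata
A_52_P369761: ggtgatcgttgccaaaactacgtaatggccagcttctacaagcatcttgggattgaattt

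*Nrg1* probe A_52_P369769 was at 9.33, 9.30, 8.95 and 8.52 in the WT controls and at 9.36, 9.01, 9.44 and 9.23 in the KO controls. At day 2 the WT samples were at 8.45, 8.33, 8.53 and 8.59 and the KO samples at 8.67, 8.65, 8.68 and 8.33. At day 5 the WT samples were at 8.76, 8.21, 8.77 and 8.37 and the KO samples at 8.90, 8.39, 8.97 and 8.69. Apart from WT control replicate 4, at 8.52, all controls were above all day 2 samples, while day 5 overlapped slightly more. The change was -0.61 at day 2 (SE 0.12, limma adjusted p = 0.00107), a 1.53-fold decrease, and -0.51 at day 5 (adjusted p = 0.00426), a 1.42-fold decrease. Without KO control replicate 4 these were -0.62 and -0.51.

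The other *Nrg1* probes gave similar values. A_52_P369761 changed by -0.64 and -0.56 (adjusted p = 3.17e-05 and 0.000107), A_52_P158772 by -0.69 and -0.68, and A_52_P52635, toward the 3′ part of the gene, by -0.76 and -0.54. A_52_P328064, the probe not called, had -0.40 and -0.48 (adjusted p = 0.127 and 0.0631), and was called at day 5 in 9 of 38 alternatives. Between day 2 and day 5 no *Nrg1* probe was called. The 4 called probes kept both calls under all 38 alternatives. Sensory neuron markers moved in the same direction, with 5 of 7 lower at day 2 and 4 lower at day 5, when *Tubb3* was higher. Their summed linear intensity ranged from 207441 to 223609 in WT controls, from 194374 to 211596 in WT day 2 and from 175473 to 206726 in WT day 5 samples. In KO mice it ranged from 212379 to 244101, 184011 to 221939 and 172139 to 200061, and its part in the *Nrg1* change was not tested.

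**Figure D3:**
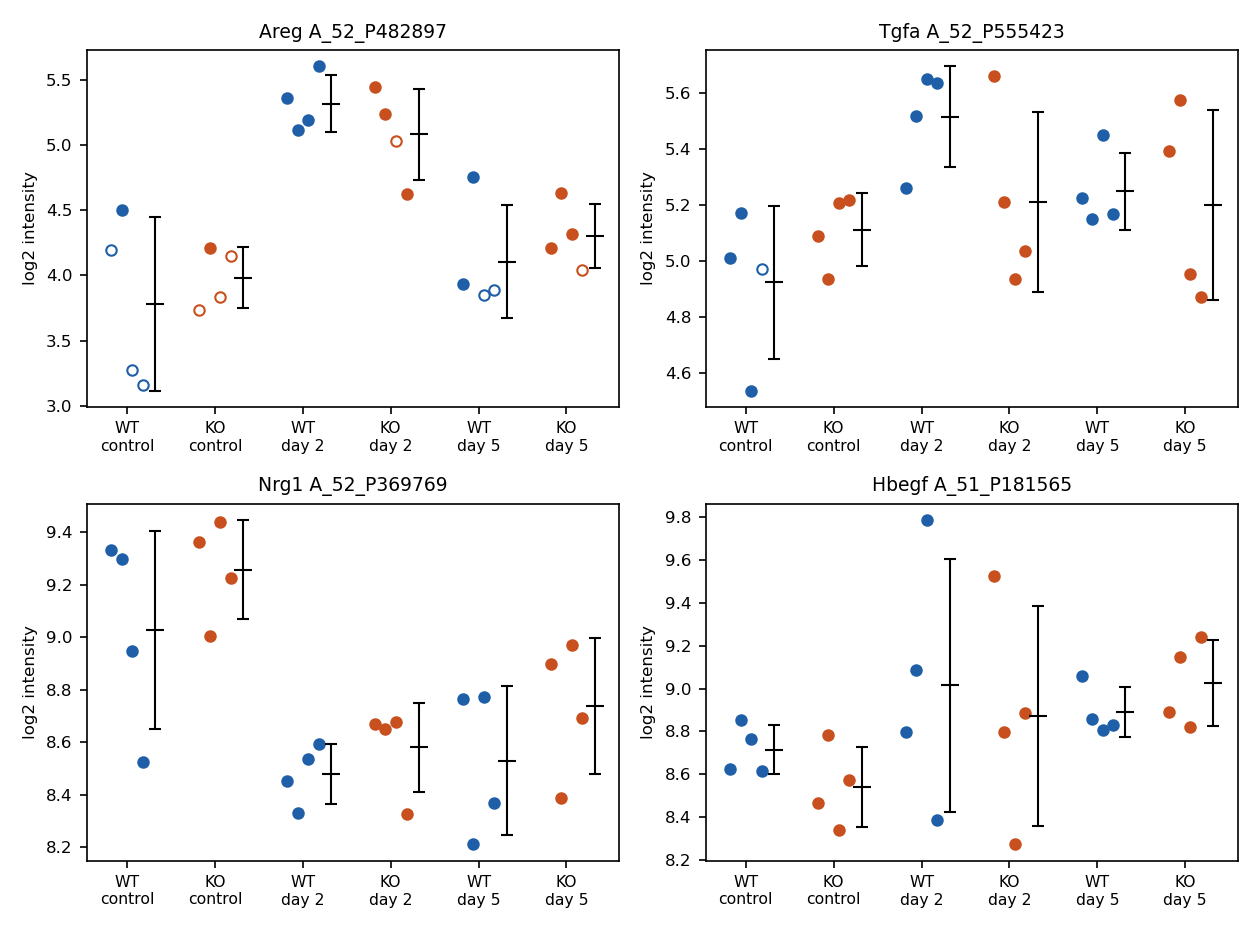
Log2 intensity of *Areg*, *Tgfa*, *Nrg1* and *Hbegf* in each of the 24 samples, WT in blue and KO in orange, with the mean and SD (n = 4) in black beside each group. Filled points were well above background and open ones were not, and the vertical axes differ. *Areg* is above all controls in the 8 day 2 samples, and *Nrg1* is lower at both times, with 1 low WT control at 8.52.

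*Erbb2* and *Erbb3* did not pass the threshold with the main processing. *Erbb2* probe A_52_P49250 had 6.84 ± 0.12 in control, 7.07 ± 0.23 at day 2 and 6.94 ± 0.12 at day 5 (SD, n = 8), a change of 0.24 (95% interval 0.04 to 0.44, adjusted p = 0.0762) and 0.10 (adjusted p = 0.522). The second *Erbb2* probe A_51_P216179 was well above background in 0 of 24 samples. *Erbb3*, the main neuregulin receptor of Schwann and satellite cells, had 9.39 ± 0.13, 9.62 ± 0.26 and 9.50 ± 0.17 on its brightest probe A_52_P432949, a change of 0.23 (adjusted p = 0.112) and 0.11 (adjusted p = 0.528). At day 2 *Erbb2* probe A_52_P49250 was called in 4 of 38 alternatives (without background correction, with processed signals, with the filter on dim probes and without KO day 2 replicate 3), with adjusted p between 0.0269 and 0.0492. A_52_P432949 was called without KO day 2 replicate 3 (0.30, adjusted p = 0.015), and other *Erbb3* probes with processed signals (A_52_P133607 and A_51_P342050) and without KO day 2 replicate 4 (A_51_P342050). Of 5 Schwann cell markers, *Mal* and *Pmp22* rose at day 2 and 0 were called at day 5, and satellite glia markers moved in both directions, as given above. Their part in these values was not tested. The other 4 *Erbb3* probes had changes between 0.10 and 0.32 at day 2 and between -0.12 and 0.16 at day 5, and none was called in the fit to all samples.

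*Erbb4*, the second neuregulin receptor, had a clear signal on only 1 of its 4 probes, and whether this signal comes from *Erbb4* RNA was not tested. A_51_P283698, which spans chr1:68089291-68090519 (-) in mm9, was well above background in all 24 samples, and the other 3 in none. One of these, A_52_P256090, spans chr1:68089289-68118127 (-) and shares 22 bases with it, given here in capitals.

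A_51_P283698: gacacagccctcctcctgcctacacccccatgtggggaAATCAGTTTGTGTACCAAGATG
A_52_P256090: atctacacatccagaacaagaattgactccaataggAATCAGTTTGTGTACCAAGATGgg

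The *Erbb4* probe A_51_P283698 followed the slide. It lay between 9.23 and 9.59 on slide 1, 9.49 and 9.73 on slide 2 and 10.39 and 10.70 on slide 3, which holds 6 WT and 2 KO samples. Slide 3 exceeded the others by 0.98, the rank 230 in size among 21643 probes well above background in all samples, while the other members in that class had between -0.37 and 0.42. The lesion changes were 0.04 and -0.03 (adjusted p = 0.941 and 0.967). The difference of KO from WT was -0.27, -0.25 and -0.44 in controls and at days 2 and 5, and with slide as a block 0.01, 0.04 and -0.01.

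**Figure D4:**
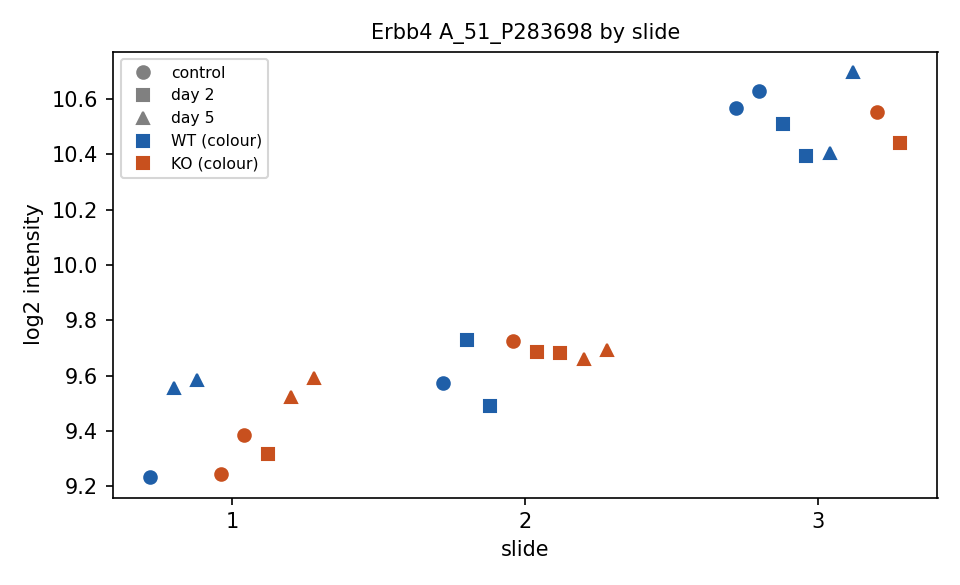
Log2 intensity of the *Erbb4* probe A_51_P283698 in the 24 samples by slide. Colour gives the genotype and the marker shape the time point, and points are spread sideways only for legibility. The 8 samples of slide 3 lie from 10.39 to 10.70, above all others, in both genotypes and at all times.

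To learn whether loss of NFIL3 altered these genes, KO and WT were compared at each time. No member probe was called in control, at day 2, at day 5 or for the time*genotype interaction, and 0 of 30 had an unadjusted limma p under 0.05. Over all probes 0%, 0.00729%, 0.0121% and 0% were called. The shares of all probes with an unadjusted limma p under 0.05 were 1.74%, 3.92%, 2.45% and 2.38%. At such shares few of 30 probes would pass, so the count of 0 says little about these genes. The lowest unadjusted limma p among the members was 0.104 in controls (*Erbb4* A_52_P256090, not detected), then 0.0946 for *Tgfa* A_52_P555423 at day 2, 0.0514 for *Nrg1* A_52_P328064 at day 5 and 0.150 for the interaction. For the 12 probes well above background in all samples, KO minus WT lay between -0.27 and 0.24 in control, -0.26 and 0.11 at day 2 and -0.44 and 0.21 at day 5. Their 95% intervals reached from -1.19, for *Erbb4* at day 5, to 0.63. The lowest values in control and at day 5 were those of *Erbb4* A_51_P283698, which followed the slide. With slide as a block it had 0.01 and -0.01. Slide 3 held no KO day 5 sample and slide 2 no WT day 5 sample, so genotype and slide are partly mixed at day 5. *Areg* rose by 1.54 in WT and 1.10 in KO mice at day 2 (difference of the changes -0.44, 95% interval -1.23 to 0.36), and the short-form *Egfr* probe rose by 2.46 and 2.72 at day 5 (difference 0.27, -0.32 to 0.85).

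Of 48 further genes of the pathway found on the array, by their brightest probe 11 were higher and 7 lower at day 2, and 9 higher and 9 lower at day 5. Over all gene names 9.4% were higher and 12.9% lower at day 2, and 10.1% and 13% at day 5. Of the proteases that release ligands, *Adam19*, known for cutting neuregulins, rose by 0.61 and 0.91 (adjusted p = 8.23e-06 and 2.72e-08), and *Adam10* rose by 0.53 and 0.55. *Adam17*, the main releasing enzyme of amphiregulin and TGF-alpha, had 0.04 at day 2 (adjusted p = 0.813) and rose by 0.36 at day 5 (adjusted p = 0.00257). *Bace1*, which cuts neuregulin 1, fell, with -0.42 and -0.36 (adjusted p = 0.000998 and 0.00334). Of the other ligands, *Nrg2* had -0.44 (adjusted p = 0.0672) and -0.49 (adjusted p = 0.0401).

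*Lrig1*, an inhibitor that promotes the breakdown of ErbB receptors, rose by 0.68 and 0.76 (limma adjusted p = 2.06e-05 and 4.1e-06), and *Socs5*, another inhibitor, was lower at day 5 (-0.42, adjusted p = 0.000508). Of the adaptors and kinases, *Nras* rose by 0.49 and 0.45, while *Shc1* (-0.32 and -0.55) and *Sos1* (-0.30 and -0.54) were lower at both times and *Ptpn11* at day 5 (-0.30). Of the early targets of the pathway, *Ier3* rose at day 2 (0.46, adjusted p = 0.0148) and had -0.09 at day 5 (adjusted p = 0.721), *Dusp6* rose by 0.32 and 0.29, and *Etv4* was lower at day 2 (-0.44, adjusted p = 0.00363). *Fosl1*, an AP-1 member, was well above background in 16 of 24 samples, which put it outside the naming rule, and was singled out after its values were seen. It rose by 2.27 and 2.22 (adjusted p = 1.7e-08 and 1.67e-08).

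Among genes well above background in all samples, the patterns most like *Nrg1* over the 24 samples were those of *Acyp1* and *Grsf1* (Pearson r 0.94 each), and most like the full-length *Egfr* probe those of *Ctsh* and *Kcnk6* (0.93 each), of 14484 genes compared. Chosen after the values were seen, *Lgals1* (0.99) and *Car3* (0.98) were most like the short-form *Egfr* probe, and *Abhd2* (0.86) and *Smarcal1* (0.84) most like *Areg*. The samples share arrays, slides and the lesion time course, and these values are descriptions.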

How the data were processed

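RNA of 24 samples was measured on 12 Agilent 4x44K mouse arrays with a different sample in each dye. The authors deposited the output of Agilent Feature Extraction, with foreground and background intensity per spot and channel, not normalized, and with flags for outliers and signal over background. As in the study's methods, the intensities were background-corrected (Edwards) and quantile normalized in limma 3.58.1 (R 4.3.3) and put on a log2 scale. Mean foreground and median background were used, outlier spots were left out, and spots of a probe were averaged. A linear model with 6 group means (lmFit, eBayes) gave the lesion, genotype and interaction contrasts, with Benjamini-Hochberg adjustment over all probes. Depth is the signal over background here, and its limit is given beside dim probes.

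All probes of the 10 genes are named. Of the pathway list, up to 5 genes per subgroup are named, those with the largest changes that were called and well above background in all samples. One gene that the rule names is not reported here. The genes, lists and tests were chosen with earlier results of these data known. Sequences of probes come from the array files (mm9) and promoters from RefSeq (GRCm38.p6). On simulated data with 200 of 40895 probes changed at day 5, 64% of changes of 1 and 33% of changes of 0.5 were called. A first check on this simulation asked for a higher recovery and failed, and it was replaced by checks of bias, of null p-values and of recovery in the quieter probes. Recovery of changes of 1 was 100% in the quieter probes and 0% in the noisiest ones. Of 105 calls, 8 were on unchanged probes. Fold changes, p-values and ratios of the authors were not used. Alternatives covered background, foreground, normalization, filter, dye, slide, array, replicate number, eBayes trend, averaging of probes, the array partner and each sample left out. Settings for the difference between *Egfr* probes were added after the data were seen.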

Additional observations from a re-analysis of the deposited data

Results flagged for a closer look

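Within groups of 4 samples, 102 combinations of a member probe and a group with all samples well above background were examined for a sample set apart from the other 3, and 3 were found. Chance alone gives about 1 in 20. *Erbb2* probe A_52_P49250 was 6.63 in WT control replicate 4, against 6.88 to 6.92 in the other WT controls. *Erbb3* probe A_52_P432949 was 9.20 in the sample labelled KO control replicate 4, against 9.43 to 9.45 in the other KO controls. *Nrg1* probe A_52_P369769 was 8.33 in KO day 2 replicate 4, against 8.65 to 8.68 in the other KO day 2 samples. No difference in the lesion change between WT and KO passed the test.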

How the results depend on the processing

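The 21 called changes were recomputed under 38 alternatives each, which gave 798 values. All kept their direction, 762 kept the call and 36 did not. Of the 36, 27 were of *Tgfa* A_52_P555423 at day 2 (0.10 to 0.44) and 9 of *Egfr* A_52_P674338, whose day 5 minus day 2 call was lost with any of 7 samples left out (highest adjusted p = 0.0645), and the cause was not tested. The number of genes called was 4 at day 2 and 2 at day 5, and at day 5 processed signals gave 4, with *Areg* and *Tgfa* added, and no background correction gave 3, with *Areg* added. At day 2 the count ranged from 3 to 6, with 6 for processed signals and without KO day 2 replicate 3 (*Erbb2* and *Erbb3* added). With probes averaged per gene, *Egfr* was not called at day 2, and without WT control replicate 2 *Erbb4* was, by A_52_P256090, which was not well above background in any sample. For KO minus WT and the interaction 0 members were called under all 39 alternatives. Deviations from group means correlated between -0.58 and 0.59 for same-numbered samples (median 0.058, 27 of 60 over 0.1). Samples also share slides and dyes, so these values cannot show whether replicate numbers pair the samples. With the replicate block *Tgfa* A_52_P555423 was no longer called (adjusted p = 0.0594), A_51_P415126 was (0.0281), and the other calls stayed. With normexp, the following changes were smaller in size with their calls kept. The *Egfr* and *Nrg1* probes among them were well above background in all 24 samples. *Egfr* A_52_P56471 had 0.45 at day 2, 1.0 at day 5 and 0.56 between the days. *Egfr* A_52_P674338 had 0.24 at day 5 and 0.27 between the days. *Nrg1* A_52_P52635 had -0.41 and -0.30, and the dim *Areg* probe -0.23 between the days. Over all probes, 8800 were called at day 2 (5561 to 10123), 9146 at day 5 (5796 to 10951) and 1290 between the days (848 to 2015). The lowest counts came from averaged probes, which are fewer features. The calls for KO minus WT over all probes were 0, 3 and 5, with 0 to 2, 1 to 5 and 1 to 6 under the alternatives. Dim probes (*Areg*, *Ereg*, *Btc*) limit what could be detected.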
